A study of Homo sapiens with 90 samples.

Results

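The data described here are 6 RNA-seq libraries of the lung cancer line A549, 3 from cells that received the CDK7 inhibitor THZ1 together with the MEK inhibitor GSK1120212 (trametinib) and 3 from cells that received trametinib alone. They were chosen by the drug labels in the sample titles, and they are 6 of the 90 libraries of a series in which several cancer lines were treated with a targeted drug, THZ1 or both. In the combination arm A549 cells were given 200 nM trametinib and 150 nM THZ1 for 48 h, and in the other arm 200 nM trametinib for 48 h. For reference, 3 further A549 arms of 3 libraries each are used: 0.1% DMSO for 48 h, 150 nM THZ1 for 48 h, and 200 nM trametinib for 7 days. The question put to the data is which transcripts stand higher or lower when THZ1 is present during trametinib treatment. The groups of the main comparison come from 1 cell line. No label tells if the 3 libraries per arm are separate cultures, so p-values measure the spread between these libraries, which may be technical. The sources used here mention no spike-in, values are relative to all RNA of a library, and in bulk RNA fewer cells with a transcript and less of it per cell cannot be told apart.

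A549 is an established human lung adenocarcinoma line. In the pathway of RAF, MEK and ERK each kinase activates the next, and trametinib blocks MEK, so that ERK no longer drives the transcription of its immediate-early genes, its feedback inhibitors and, further downstream, the genes of the cell cycle. CDK7 is the kinase of the general transcription factor TFIIH. It phosphorylates the tail of RNA polymerase II at promoters and activates the kinases of the cell cycle. THZ1 binds CDK7 covalently and also acts on CDK12 and CDK13, which phosphorylate the polymerase during elongation. Transcripts with a short life are known to respond first when transcription is slowed, among them immediate-early genes and cytokine genes under NF-kB, the factor that inflammatory signals activate.

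The 6 libraries held 9.88 to 11.86 M expected counts, and the 15 A549 libraries 6.20 to 12.94 M, with the 7-day arm lowest. Each of the 15 libraries correlated best with another of its own arm. The lowest correlation within an arm was 0.981, and combination libraries correlated with trametinib libraries at 0.973 to 0.977 (log scale, across genes). Markers fitted the label in part. CDKN2A, which A549 is known to have lost, stayed at or below 0.309 CPM (counts scaled to library size, for these genes to raw totals) in all 15 libraries. It stood at 212 to 238 CPM in the DMSO libraries of PC9, but at 0 to 0.687 CPM in those of H3122. Of the other genes listed as lost, CDKN2B stayed at or below 0.481 CPM in the 15 A549 libraries, but MTAP held 1.07 to 4.86 CPM. The epithelial genes were high. The surfactant genes SFTPC and SFTPA1 and the club cell gene SCGB1A1, however, were at 0 in both arms, and SFTPB and NKX2-1 were too low to be tested. Combination replicate 1 stood apart from replicates 2 and 3: the chi-square of its counts per degree of freedom was 3.91 and 4.14 against 1.96 between those 2, and 1.77 to 2.25 between trametinib libraries. It did so most plainly in targets of ERK, and results on these are given with and without it. Over 20 ERK targets, replicate 1 of the 7-day arm was highest too, at a summed 1339 CPM against 849 and 866 CPM. With THZ1 alone replicate 1 had 1944 CPM against 1774 and 1735 CPM, but by the list median it did not stand apart. Trametinib at 48 h and DMSO have no replicate 1, and a shift shared by libraries of that number was not tested.

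With THZ1 added, 6069 of the 14810 genes tested differed at an adjusted p under 0.05 (edgeR quasi-likelihood test, Benjamini-Hochberg), which is 41.0% of them. Of these, 3012 were higher (20.3% of genes tested) and 3057 lower (20.6%). Most changes were small, with a median log2 fold change of 0.35 among the genes that rose and -0.42 among those that fell. At least 2-fold higher were 265 genes (1.79%) and at least 2-fold lower 424 (2.86%). The 3 combination and 3 trametinib libraries did not overlap for 7461 genes (50.4%), 5821 of them among the genes called. The balance of rises and falls rests on the scaling: 49.6% of calls were rises with the TMM factors used here, and 62.1% (4047 higher, 2465 lower) when libraries were scaled by their totals alone, which shifts the median gene by 0.06 on the log2 scale.

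Genes of the basal transcription machinery were higher with THZ1 added to trametinib, which alone had left most of them below DMSO. Of the 12 RNA polymerase II subunits 10 rose and 0 fell, with a median log2 fold change of 0.38 against 0.00 over all genes tested. Trametinib alone had left 10 below DMSO and 0 above (median -0.76), a comparison that shares the trametinib libraries. On the log2(CPM + 1) scale, library medians against the trametinib mean were 0.34 to 0.38 in the combination and 0.65 to 0.77 with DMSO. POLR2A, the catalytic subunit that carries the phosphorylated tail, stood at 441, 440 and 412 CPM in combination replicates 1, 2 and 3 and at 203, 206 and 193 CPM in trametinib replicates 2, 3 and 4. Every combination library lay above every trametinib library, a log2 fold change of 1.10 ± 0.04 (SE; adjusted p = 1.07e-13). Unlike the list, POLR2A in the combination also stood above DMSO (mean 191 CPM). The small subunit POLR2L rose by 0.79 ± 0.05 and POLR2G, part of the stalk, by 0.64 ± 0.07.

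Of the 9 TFIIH genes measured 5 rose and 0 fell, with a median of 0.27. Trametinib alone had left 8 below DMSO and 0 above (median -0.67), and THZ1 alone left 2 above and 1 below (0.08). Library medians against the trametinib mean were 0.28 to 0.30 in the combination and 0.40 to 0.74 with DMSO. CDK7 itself had 31.7, 35.9 and 33.2 CPM in the combination and 23.5, 25.8 and 23.2 CPM with trametinib, and the groups did not overlap (log2 fold change 0.47 ± 0.08, adjusted p = 1.28e-04). The DMSO mean of CDK7 was 23.4 CPM. Its cyclin, CCNH, rose by 0.47 ± 0.09 and the helicase ERCC2 by 0.56 ± 0.10. The assembly factor MNAT1 had a log2 fold change of 0.14 ± 0.11 and did not pass the test (adjusted p = 0.332). Among 21 elongation kinases and factors 10 rose and 2 fell, with a median of 0.15, or 0.08 without combination replicate 2. CDK12, CDK13 and their cyclin CCNK rose by 0.40, 0.29 and 0.57. HEXIM1, the inhibitor of the elongation kinase P-TEFb, rose by 0.62 ± 0.05, and MEPCE, which caps the 7SK RNA that holds this inhibitor, by 0.63 ± 0.06. ELL2, a subunit of the super elongation complex, fell by 0.38.

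Replication-dependent histone transcripts rose as well. Of 13 tested, from a list of 26, 11 rose and 0 fell, 8 of them at least 2-fold, with a median of 1.06. H2BC12 had 158, 162 and 163 CPM in the combination and 64.6, 59.0 and 66.7 CPM with trametinib (log2 fold change 1.34 ± 0.05, adjusted p = 2.77e-13). The groups were far apart. The mean was 151 CPM with THZ1 alone and 55.3 CPM with DMSO. H2AC11 had 7.82, 8.43 and 9.39 CPM against 2.05, 1.27 and 1.54 CPM, the largest rise by the naming rule (2.38 ± 0.22). Histone genes are close copies of each other, so reads may have been split between them, which leaves the value of any single gene uncertain, HIST2H2AA3 (1.49) above all. Most of these transcripts carry no poly(A) tail, and a selection for poly(A) is neither named nor denied in the sources used here.

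**Figure D1:**
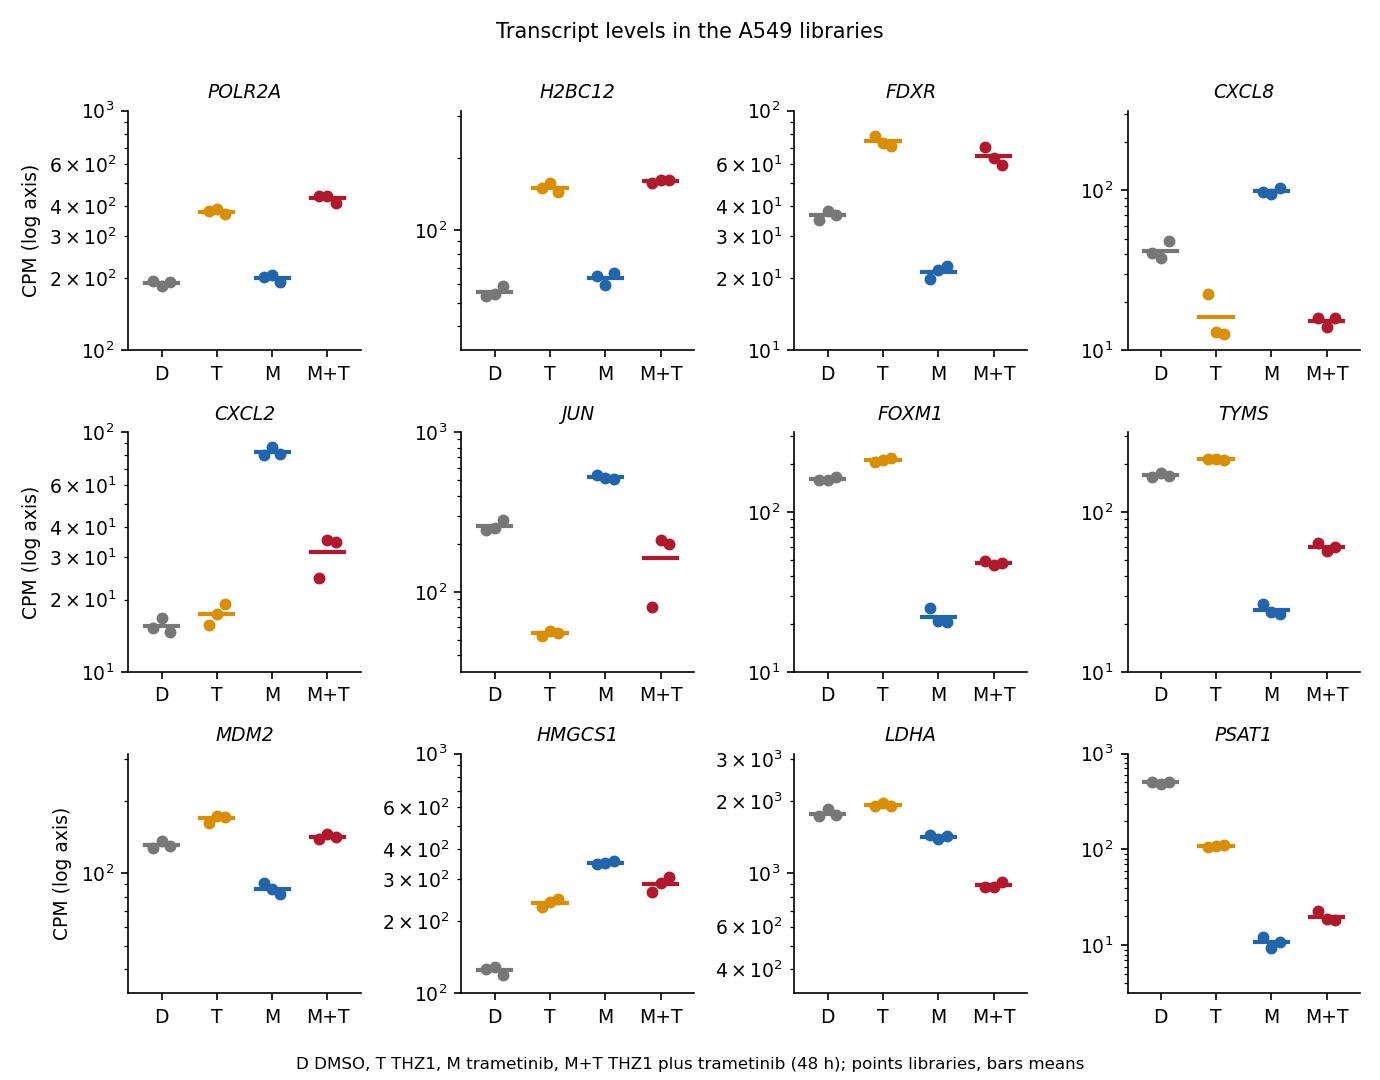
Levels of 12 genes in CPM (log axis) in each A549 library at 48 h, with DMSO (D), THZ1 (T), trametinib (M) and both drugs (M+T); points are libraries and bars the means of 3. POLR2A, H2BC12 and FDXR lie at a high level in both arms with THZ1, CXCL8 and JUN are highest with trametinib alone, and FOXM1 and TYMS in the combination lie between trametinib and DMSO.

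Immediate-early and other short-lived transcripts fell. Of 28 tested 18 fell and 3 rose, 9 fell at least 2-fold, and the median was -0.65. EGR1, a zinc finger factor switched on by ERK through serum response elements, had 22.3, 5.53 and 6.29 CPM in the combination, against 82.1, 81.8 and 66.0 CPM with trametinib. The groups did not overlap, replicate 1 was the highest of the combination, and the log2 fold change was -2.76 ± 0.55 (adjusted p = 4.45e-04), or -3.69 without replicate 1. The mean was 443 CPM with DMSO and 65.9 CPM with THZ1 alone, so both drugs given singly left EGR1 well below DMSO and the combination lay lower again. The 250 bases before its start (RefSeq, GRCh38.p14, chr5:138465229-138465478, + strand) are shown because they hold the element that serum response factor binds, the CArG box, in 2 copies, marked by capitals.
EGR1: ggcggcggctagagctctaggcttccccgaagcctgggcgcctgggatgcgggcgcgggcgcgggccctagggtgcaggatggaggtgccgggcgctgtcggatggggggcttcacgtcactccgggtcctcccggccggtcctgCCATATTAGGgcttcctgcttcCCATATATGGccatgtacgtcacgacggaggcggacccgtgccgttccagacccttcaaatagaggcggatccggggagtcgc
A CArG box was found on either strand in 1.14% of the 27305 windows of that length, and in 2 of the 25 windows of the immediate-early list, those of EGR1 and SRF, which is a description of letters and not of binding.

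JUN and FOS, which pair in the AP-1 factor, were both lower. JUN had 80.1, 212 and 199 CPM in the combination and 541, 519 and 507 CPM with trametinib (log2 fold change -1.68 ± 0.19, adjusted p = 6.55e-07, and -1.35 without combination replicate 1). Here replicate 1 was the lowest of the combination, unlike in EGR1. FOS had 66.2, 46.3 and 46.2 CPM against 171, 166 and 138 CPM (-1.59 ± 0.17). The kinase phosphatase DUSP1 fell by 1.44, and the Kruppel-like factors KLF6 and KLF2 by 1.43 and 1.12. MYC had 134, 81.8 and 81.4 CPM against 130, 134 and 148 CPM, so the groups overlapped through replicate 1. Its fall of 0.47 ± 0.14 (adjusted p = 0.0129) became 0.75 without that library, and it missed the threshold in DESeq2 (adjusted p = 0.0636) and without combination replicate 2 (0.0832), combination replicate 3 (0.0845) or trametinib replicate 4 (0.0546). The 3 members that rose were the p53 target BTG2 (0.78), the inhibitor of differentiation ID2 (0.76) and SRF (0.16), whose call was lost without combination replicate 2 (adjusted p = 0.0866) or trametinib replicate 4 (0.0673).

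The transcripts that report ERK output most directly did not move as a group. Of 20 genes, 2 rose (CCND1 and ETV4) and 2 fell (IER3 and SPRED1), with a median of 0.23. Without combination replicate 1 the count was 1 up and 4 down, and the median -0.23. The phosphatase DUSP6 had 2.82, 0.468 and 0.603 CPM in the combination and 2.05, 2.45 and 2.15 CPM with trametinib, so that replicate 1 lay above and replicates 2 and 3 below the trametinib libraries. Its log2 fold change of -0.77 ± 0.56 did not pass the test (adjusted p = 0.296), and without replicate 1 it was -2.01 (adjusted p = 0.0206). It also passed without a filter on low counts (adjusted p = 0.0266) and with replicate number as a block in the fit (-1.23, adjusted p = 0.0132).

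The feedback inhibitor SPRY4 had 2.55, 0.375 and 0.0861 CPM against 0.257, 0.362 and 0.205 CPM. FOSL1, an AP-1 partner stabilised by ERK, had 37.9, 12.2 and 12.2 CPM against 9.92, 8.97 and 11 CPM. In both genes replicate 1 was the highest of the 6 libraries, and neither passed the test (adjusted p = 0.100 and 0.129), though FOSL1 did in a fit of the 6 libraries alone (0.0256) and SPRY4 without combination replicate 3 (0.0137) or without a filter on low counts (0.00140). ETV4, an ETS factor under ERK, stood at 1.00, 0.468 and 0.431 CPM against 0.257, 0 and 0.410 CPM. All 6 values lie far below its mean of 73.3 CPM with DMSO. The call was lost without combination replicate 1 (adjusted p = 0.241) or trametinib replicate 2 (0.0691) or 3 (0.213), and with the replicate block (0.0516). CCND1, cyclin D1, rose by 0.52 ± 0.07, with 110, 107 and 111 CPM against 76.7, 78.2 and 73.7 CPM and a DMSO mean of 334 CPM. Over the 20 genes the summed level was 922, 631 and 640 CPM in the combination, 811 to 861 CPM with trametinib and 1789 to 1841 CPM with DMSO.

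**Figure D2:**
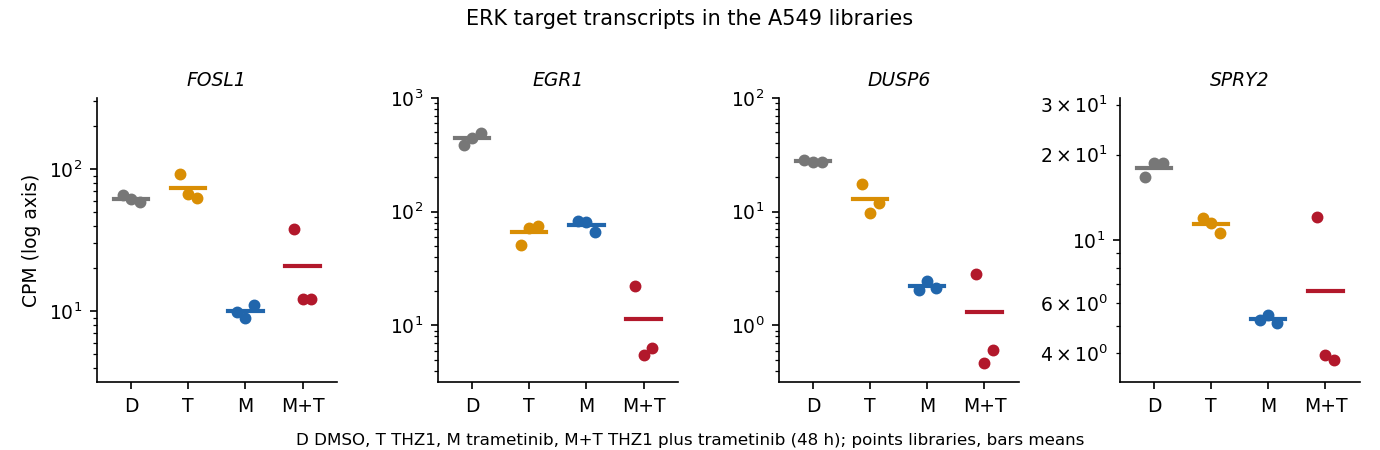
Levels of 4 ERK target genes in CPM (log axis) in each A549 library at 48 h, with DMSO (D), THZ1 (T), trametinib (M) and both drugs (M+T); points are libraries and bars the means of 3. In the combination 1 library, replicate 1, lies above the other 2 in every panel, at 37.9 CPM against 12.2 CPM for FOSL1.

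Cytokine genes under NF-kB and the feedback genes of this factor fell most uniformly. Of 21 tested from a list of 23, 18 fell and 0 rose, 8 fell at least 2-fold, and the median was -0.78. Trametinib alone had left 20 of the 21 above DMSO and 1 below, with a median log2 fold change of 2.62. That comparison shares the trametinib libraries. On the log2(CPM + 1) scale, library medians against the trametinib mean were -0.78 to -0.66 in the combination and -2.46 to -2.36 with DMSO. As a list, the combination thus lay below trametinib and above DMSO. CXCL8, the neutrophil chemokine interleukin 8, had 15.9, 14 and 16 CPM in the combination and 97.9, 95.6 and 103 CPM with trametinib. The groups did not overlap (log2 fold change -2.69 ± 0.20, adjusted p = 1.88e-09). For CXCL8 the combination stood near THZ1 alone (mean 16.1 CPM) and, unlike the list as a whole, below DMSO (mean 42.1 CPM). CXCL2 had 24.7, 35.5 and 34.9 CPM against 80.0, 87 and 81.4 CPM, again with no overlap (-1.39 ± 0.13, adjusted p = 3.48e-08), and its DMSO mean was 15.6 CPM.

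Further chemokines of the CXCR2 group also fell. CXCL1 fell by 1.30, CXCL3 by 1.18 and CXCL5 by 0.78. The signalling inhibitors NFKBIA and TNFAIP3, which NF-kB induces against itself, fell by 0.47 ± 0.14 and 0.64 ± 0.17, and both missed the threshold in DESeq2 (adjusted p = 0.0794 and 0.0526). NFKBIZ, a nuclear relative that helps to induce cytokines, fell by 1.36 ± 0.18. NFKBIZ had 30.1, 15 and 14.6 CPM against 49.9, 54.3 and 48.6 CPM, with replicate 1 highest in the combination, and fell by 1.78 without it. Without replicate 1 the list gave 19 falls and 0 rises, with a median of -0.72. Markers of blood cells, which also make these cytokines, were not detected as a set: CD3E was at 0 in all 6 libraries, and 5 of 7 markers were under 1 CPM on average in both arms. The 2 that were present, CD68 and LYZ, fell. CD68 had 20.7, 21.4 and 23.1 CPM against 54.9, 56.7 and 56.9 CPM, and the summed level of the 7 was 24.7 to 29.2 CPM against 64.8 to 68.7 CPM. Their part in the cytokine result was not tested.

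The windows before the starts of CXCL8 (RefSeq, GRCh38.p14, chr4:73740319-73740568, + strand) and CXCL2 (chr4:74099196-74099445, - strand) are shown. Within the NF-kB list these 2 genes fell most among those with at least 5 CPM in the higher arm. Capitals mark GGANTTTCC, a core of the NF-kB element, searched on both strands.
CXCL8: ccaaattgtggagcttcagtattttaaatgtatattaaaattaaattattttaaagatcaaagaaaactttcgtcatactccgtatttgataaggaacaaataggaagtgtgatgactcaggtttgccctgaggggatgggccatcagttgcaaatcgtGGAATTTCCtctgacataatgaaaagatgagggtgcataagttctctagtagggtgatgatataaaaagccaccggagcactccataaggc
CXCL2: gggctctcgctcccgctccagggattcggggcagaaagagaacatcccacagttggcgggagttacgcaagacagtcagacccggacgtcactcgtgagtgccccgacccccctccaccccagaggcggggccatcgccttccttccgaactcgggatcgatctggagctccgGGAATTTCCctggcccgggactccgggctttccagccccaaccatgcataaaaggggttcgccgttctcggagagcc
The letters occur in 12 of the 19 windows matched for this list (63.2%) and in 401 of all 27305 windows (1.47%). Of the 12 genes, 11 were tested and all 11 fell, among them CXCL1, CXCL3, CXCL5, TNFAIP3, NFKBIA, NFKBIZ, NFKB1 and ICAM1. Over all 159 tested genes with the letters, 24.5% fell and 15.1% rose, with a median of -0.06, close to the 20.6% and 20.3% of all genes tested.

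Cell cycle transcripts rose. Of 23 mitotic genes 22 rose and 0 fell, with a median of 0.89, and of 26 replication genes 22 rose and 0 fell, with a median of 0.62. FOXM1, the factor that drives mitotic genes, had 49.5, 46.4 and 47.9 CPM in the combination and 25.1, 20.7 and 20.5 CPM with trametinib, without overlap (log2 fold change 1.11 ± 0.07, adjusted p = 1.29e-10). Both arms lay far below the means of 161 CPM with DMSO and 212 CPM with THZ1 alone. TYMS, thymidylate synthase, had 63.9, 57.3 and 60.8 CPM against 26.6, 23.6 and 22.9 CPM (1.31 ± 0.06, adjusted p = 5.59e-12), with a DMSO mean of 170 CPM.

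The kinesin KIF20A and the survivin gene BIRC5 rose by 1.13 and 1.11, cyclin B1 (CCNB1) by 1.02 and cyclin B2 (CCNB2) by 0.62. The replication helicase factor CDC45 rose by 1.42, MCM2 by 0.87 and the sliding clamp PCNA by 0.74. The members that did not pass were AURKB among the mitotic genes (0.31, adjusted p = 0.0959, or 0.0394 when scaled by library totals) and 4 replication genes, of which MCM6 was the flattest at -0.01. Trametinib alone had left both lists far under DMSO, with median log2 fold changes of -2.94 and -2.95, a comparison that shares the trametinib libraries. Without combination replicate 1, 22 mitotic and 20 replication genes rose, with medians of 0.88 and 0.62.

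The window before CCNB2 (RefSeq, GRCh38.p14, chr15:59104896-59105145, + strand) is shown as an example of a mitotic promoter. Capitals mark CCAAT, which the factor NF-Y binds, in 4 copies, and TTTGAA, a core of the cell cycle element CHR, in 1 copy.
CCNB2: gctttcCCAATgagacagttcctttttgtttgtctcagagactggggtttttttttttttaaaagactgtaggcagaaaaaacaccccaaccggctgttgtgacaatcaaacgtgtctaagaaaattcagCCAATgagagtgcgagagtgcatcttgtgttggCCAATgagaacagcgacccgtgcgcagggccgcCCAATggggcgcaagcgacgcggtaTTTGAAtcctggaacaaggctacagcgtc
Searched on both strands, CCAAT and TTTGAA occurred together in 8 of the 17 mitotic windows matched (47.1%) and in 4.85% of all windows. All 8 genes rose, CCNB2 among them. Over the 379 tested genes with both, 32.7% rose and 17.4% fell, with a median of 0.09. For CCAAT alone the shares were 26% and 18%, over 3805 tested genes.

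Genes of homologous recombination and the Fanconi pathway, which repair DNA breaks and crosslinks and are known to depend on CDK12, also stood higher. Of 20, 15 rose and 0 fell, with a median of 0.72. RAD51AP1, a recombination factor, rose by 1.31 ± 0.16 and RAD51C by 1.25 ± 0.16. FANCD2 rose by 1.00, BRCA1 by 0.90 and the exonuclease EXO1 by 1.08. BRCA1 had 19.8, 16.9 and 14 CPM against 9.06, 8.70 and 9.43 CPM, with a DMSO mean of 74.0 CPM. Again the combination lay above trametinib in every library and below DMSO.

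Targets of p53, the stress-activated tumour suppressor that A549 retains, rose. Of 24, 18 rose and 0 fell, with a median of 0.69, and 16 and 0 without combination replicate 1 (median 0.62). FDXR, a mitochondrial reductase and p53 target, had 70.6, 63.4 and 59.3 CPM in the combination and 19.8, 21.6 and 22.4 CPM with trametinib. The 2 groups were well apart (log2 fold change 1.60 ± 0.07, adjusted p = 2.04e-12), and THZ1 alone had a mean of 74.4 CPM. MDM2, the ubiquitin ligase of p53, had 139, 146 and 142 CPM against 91.0, 86.2 and 82.2 CPM (0.72 ± 0.05). SESN1 rose by 1.32, the phosphatase PPM1D by 1.15 and the secreted factor GDF15 by 1.13. The cell cycle inhibitor CDKN1A had 162, 132 and 128 CPM against 110, 105 and 111 CPM. Its rise of 0.37 ± 0.12 (adjusted p = 0.0142) missed the threshold without combination replicate 1 (0.26, adjusted p = 0.0869), without trametinib replicate 3 (0.0512) and in DESeq2 (0.0571).

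The BCL2 family, which sets the threshold of apoptosis, moved both ways: 2 of 15 rose and 7 fell, with a median of -0.07, and 4 rose and 6 fell when scaled by library totals. The survival protein MCL1, a short-lived transcript, had 306, 267 and 273 CPM against a mean of 373 ± 1.17 CPM (SD, n = 3), without overlap (-0.41 ± 0.10, adjusted p = 0.00222). Its relative BCL2L1 had 148, 144 and 156 CPM against 144, 149 and 148 CPM (0.02 ± 0.04, adjusted p = 0.677). Of the death-promoting members, BAX rose by 0.53 ± 0.06. BMF fell by 0.87, BOK by 0.74, BIK by 0.61 and PMAIP1 by 0.43, a call lost without combination replicate 2 (adjusted p = 0.0896) or 3 (0.0603) or trametinib replicate 4 (0.0614). BBC3 had a log2 fold change of -0.07 (adjusted p = 0.458).

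**Figure D3:**
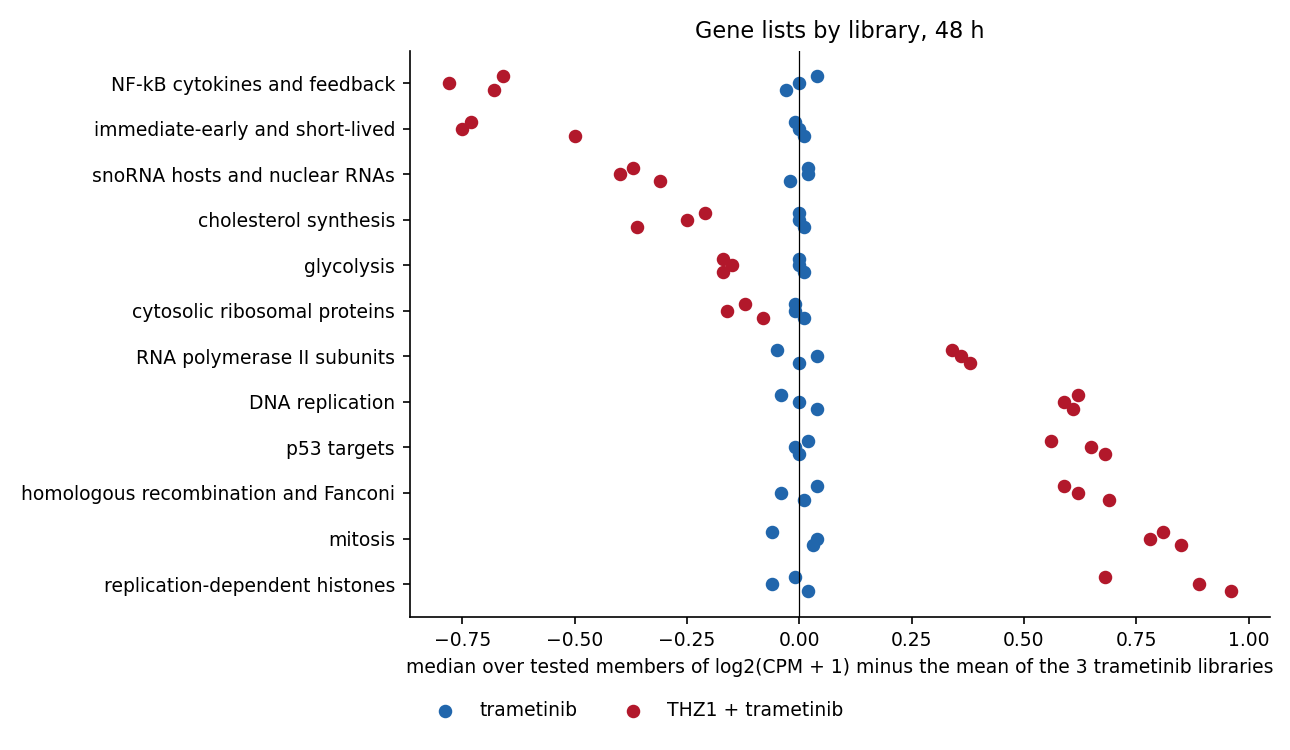
Median over the tested members of 12 gene lists of log2(CPM + 1) minus the mean of the 3 trametinib libraries, for each trametinib and combination library at 48 h. In each of these lists, which were picked for display after the values were known, the 3 combination libraries lie on 1 side of the 3 trametinib libraries.

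Genes of metabolism were mostly lower. Of 20 genes of cholesterol synthesis and uptake 13 fell and 1 rose (STARD4, by 0.20, lost without combination replicate 3 at an adjusted p of 0.0531), with a median of -0.27. HMGCS1, an early enzyme of the pathway, had 264, 288 and 306 CPM against 347, 350 and 356 CPM (-0.29 ± 0.05, adjusted p = 6.68e-05). These groups did not overlap, and the DMSO mean was 125 CPM. In glycolysis 10 of 16 fell and 4 rose, with a median of -0.18. LDHA, which turns pyruvate into lactate, had 882, 879 and 923 CPM against 1448, 1391 and 1430 CPM (-0.67 ± 0.03, adjusted p = 1.14e-11). The lactate exporter SLC16A3 had 27.1, 26.9 and 23.9 CPM against 61.0, 67.4 and 63.8 CPM (-1.30 ± 0.06). In neither gene did the groups overlap. ALDOA fell by 0.39, and PFKM rose by 0.39.

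The integrated stress response, in which ATF4 induces amino acid synthesis genes, split. Of 25 genes 9 rose and 8 fell, with a median of -0.02. ATF4 itself had 114, 105 and 106 CPM against 189, 187 and 194 CPM (-0.81 ± 0.05, adjusted p = 2.50e-10), its partner ATF3 fell by 1.07 and the pseudokinase TRIB3 by 0.92. The serine synthesis enzymes moved the other way. PSAT1 had 22.7, 19 and 18.2 CPM against 12.2, 9.42 and 10.9 CPM (0.88 ± 0.10, adjusted p = 3.45e-07), far below its DMSO mean of 500 CPM. PHGDH rose by 0.96 and PSPH by 0.88.

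Cytosolic ribosomal protein transcripts were slightly lower: 38 of 75 fell and 11 rose, with a median of -0.12. RPL13A fell by 0.49 and RPL10 by 0.47, while FAU rose by 0.41. Scaled by library totals, 31 fell and 16 rose. Of 12 snoRNA host genes and nuclear RNAs 8 fell and 1 rose, with a median of -0.36, and 7 fell and 2 rose when scaled by library totals. The nuclear RNA MALAT1 had 773, 839 and 803 CPM against 1579, 1677 and 1433 CPM (-0.96 ± 0.16), and the snoRNA host GAS5 fell by 0.72. In both the groups did not overlap. Of 14 cytosolic heat shock genes 7 rose and 3 fell, with HSPH1 up by 0.79 and the small chaperone HSPB1 down by 0.62. Scaled by library totals, 9 rose and 1 fell. The other falls, HSPA8 and HSP90AB1, each lost the call in 7 of 15 alternatives. Without combination replicate 1 the median was 0.12 instead of 0.19. HSPA1A and HSPA1B (0.44 and 0.67) are near-identical copies, and their separate values are uncertain. Of 13 genes of the mitochondrial genome 4 rose and 1 fell, led by MT-ND1 at 0.53. Without combination replicate 1, 2 rose and 1 fell, and MT-CYB was among those that lost the call (0.17, adjusted p = 0.108). The mitochondrial share of all counts was 4.51 to 4.96% in the combination and 3.79 to 4.20% with trametinib.

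By size, the 12 largest rises and 12 largest falls with at least 5 CPM and no overlap between the groups were named. Besides the genes above, the rises included NR1D1, a repressor of the circadian clock (1.49), the mitotic kinase PBK (1.38), the kinesin KIF18A (1.36), the homeobox gene HOXB13 (1.41) and FAM111B (1.49). NME2 (1.35) and EIF3CL (1.98) overlap or copy other genes and are uncertain, and EIF3CL lost its call in DESeq2 (adjusted p = 0.405) and without combination replicate 3 (0.0786), trametinib replicate 2 (0.109) or trametinib replicate 3 (0.102). The largest fall was that of PPBP, the chemokine CXCL7, with 0.637, 0.936 and 1.89 CPM in the combination and 18.8, 18.8 and 18.2 CPM with trametinib (-3.98 ± 0.19, adjusted p = 2.24e-11). All 3 DMSO libraries were at 0.

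Several of the largest falls were in genes that stood far higher with trametinib than with DMSO, a comparison that shares the trametinib libraries. CEACAM5, the carcinoembryonic antigen, had 21.3, 26.9 and 28.8 CPM against 117, 112 and 119 CPM, and a DMSO mean of 3.84 CPM (-2.17 ± 0.07). MUC1, a membrane mucin, had 21.5, 27.4 and 27.0 CPM against 86.8, 98.2 and 97.3 CPM, and a DMSO mean of 4.13 CPM (-1.89 ± 0.10). In both, the combination lay between trametinib and DMSO. KRT6A fell by 2.68, TSPAN1 by 2.31, the phospholipase PLA2G2A by 2.22, BMP6 by 2.09, the phosphatase PTPRD by 2.41, the myosin MYO7B by 2.17, CILP by 2.20 and AIF1L by 2.59. As a list the lung epithelium markers did not all follow: 6 of 13 tested fell, 2 rose (FOXA1 and CDH1, E-cadherin, by 0.39 and 0.28), and the median was -0.11, or -0.03 without trametinib replicate 3. Their summed level was 18693 to 19011 CPM in the combination and 20302 to 20883 CPM with trametinib.

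A further comparison asked how THZ1 at 48 h stood to the genes that longer trametinib treatment changes. Genes called and at least 2-fold different at 7 days against DMSO were taken as a list. These 2 arms share no library with the 6 compared here, though all 15 entered 1 fit, and at 7 days the effect of the drug and that of time in culture cannot be told apart. Of 2784 genes raised at 7 days, 1233 (44.3%) were lower in the combination at 48 h and 162 (5.82%) higher, with a median log2 fold change of -0.30. Of 2297 genes lowered at 7 days, 932 (40.6%) were higher and 175 (7.62%) lower, with a median of 0.23. Among the 9729 other genes 16.9% were lower and 19.7% higher, with a median of 0.01. With a 4-fold list the medians were -0.51 and 0.47. Most genes of both lists had moved by 48 h already. Trametinib alone left 2494 of the 2784 above DMSO at 48 h and 1970 of the 2297 below. Their medians against DMSO at 48 h were 1.47 and -1.29, a comparison that shares the trametinib libraries.

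The ubiquitin-like gene UBD, raised at 7 days to a mean of 365 CPM from 0.0583 CPM with DMSO, had 40.6, 51.9 and 54.3 CPM in the combination and 101, 97.8 and 99.8 CPM with trametinib at 48 h (-1.03 ± 0.08). VTCN1, an immune checkpoint ligand, fell by 0.90 and the smooth muscle gene CNN1 by 1.23. Among the genes lowered at 7 days, the tumour-associated SUSD2 had 6.19, 7.59 and 5.68 CPM against 2.65, 2.99 and 2.25 CPM (1.28 ± 0.17), with 46.2 CPM with DMSO. The imprinted RNA H19, which dropped from a mean of 3780 CPM with DMSO to 8.79 CPM at 7 days, went against the pattern. It had 1689, 1693 and 1631 CPM in the combination and 2719, 2680 and 2552 CPM with trametinib (-0.67 ± 0.05). In these genes the 48 h groups did not overlap.

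**Figure D4:**
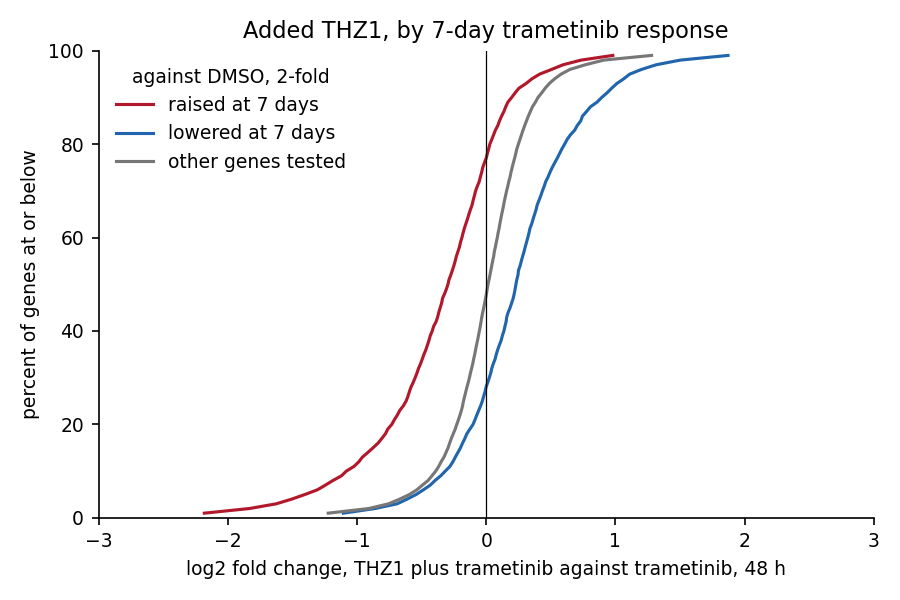
Cumulative share of genes (percent, vertical axis) by log2 fold change of THZ1 plus trametinib against trametinib at 48 h (horizontal axis), for genes raised 2-fold or lowered 2-fold by trametinib at 7 days against DMSO and for all other genes tested. The curve of genes raised at 7 days lies to the left (median -0.30), that of genes lowered to the right (median 0.23), and the others are centred at 0.01.

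Whether THZ1 acted alike with and without trametinib was tested as an interaction, the log2 fold change of the combination over trametinib minus that of THZ1 over DMSO, which share no library. It was positive for 2262 genes (15.3%) and negative for 2187 (14.8%). The balance rests on the scaling, with 2741 positive and 1883 negative under upper-quartile scaling, and 2246 and 2170 under RLE scaling. RNA polymerase II subunits, histones and immediate-early genes had medians of the same sign in both settings: 0.38 with and 0.24 without trametinib, 1.06 and 0.88, and -0.65 and -0.58. POLR2A, with 1.10 and 0.99, had an interaction of 0.11 that did not pass the test (adjusted p = 0.157), and that of EGR1 did not either (-0.01, adjusted p = 0.994). NF-kB cytokine and feedback genes differed: the median was -0.78 with trametinib and 0.63 without, and the interaction was negative for 17 of 21 and positive for 0. CXCL5 rose by 1.36 under THZ1 alone and fell by 0.78 on trametinib (interaction -2.14, adjusted p = 8.57e-14). CXCL8 was lower with THZ1 in both settings (-1.39 and -2.69, interaction -1.30, adjusted p = 0.00291).

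Cholesterol genes likewise had a median of -0.27 with and 0.52 without trametinib, and a negative interaction for 18 of 20 (0 positive). HMGCS1 gave -0.29 and 0.94 (interaction -1.23, adjusted p = 1.04e-10). Heat shock genes had medians of 0.19 with and 0.72 without trametinib, and a negative interaction for 11 of 14 (0 positive). In the integrated stress response the difference lay in the other direction: the median was -0.02 with and -1.25 without trametinib, and the interaction was positive for 19 of 25. PSAT1 fell from a mean of 500 CPM with DMSO to 109 CPM with THZ1 alone, whereas it rose where THZ1 was added to trametinib, and its interaction was 3.08 (adjusted p = 5.84e-14). Mitotic and replication genes had medians of 0.89 and 0.62 with trametinib against 0.25 and 0.15 without, and positive interactions for 19 of 23 and 17 of 26.

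**Figure D5:**
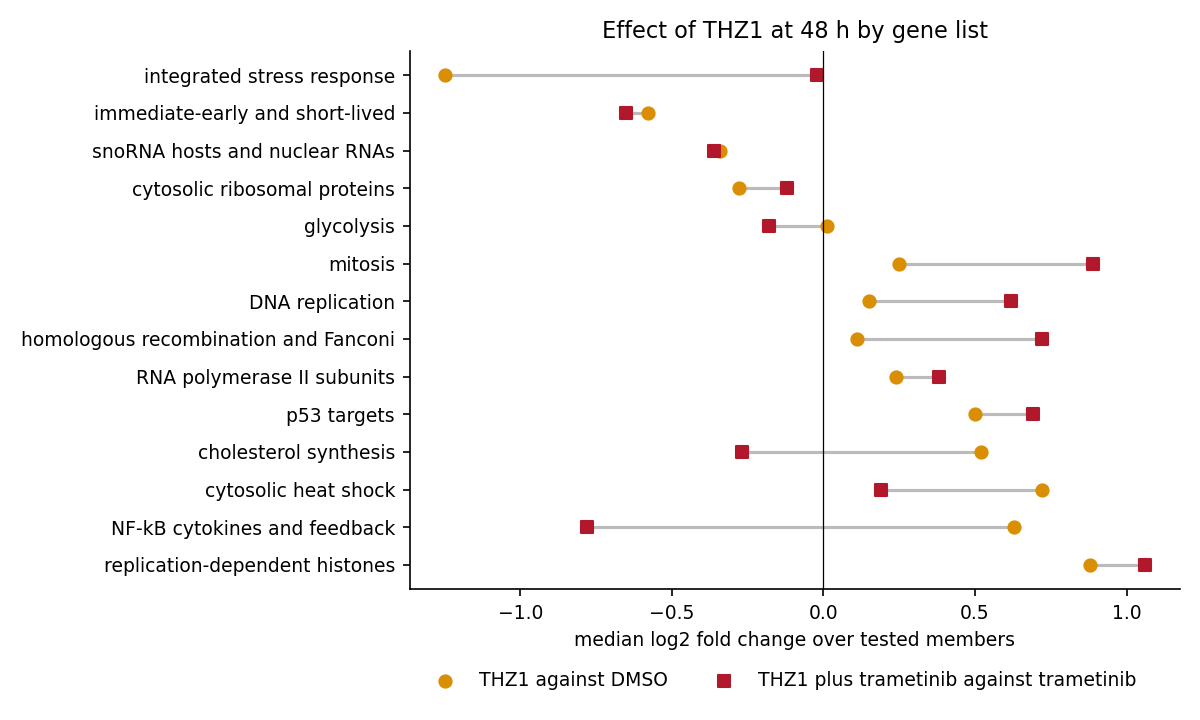
Median log2 fold change over the tested members of 14 gene lists for THZ1 against DMSO (circles) and for THZ1 plus trametinib against trametinib (squares), A549 at 48 h. The 2 marks lie on opposite sides of 0 for NF-kB genes (0.63 and -0.78) and cholesterol synthesis (0.52 and -0.27), and close together for immediate-early genes (-0.58 and -0.65).

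The effect in A549 was also set against that in 2 other lung lines, PC9 treated with 1 uM erlotinib with or without 100 nM THZ1, and H3122 treated with 250 nM crizotinib with or without 50 nM THZ1, all for 48 h with 3 libraries each. Line, targeted drug and THZ1 dose cannot be told apart here. Of 17463 genes tested in a fit over the 3 lines, the log2 fold change in A549 was above that in PC9 for 3515 (20.1%) and below it for 3778 (21.6%). Against H3122 it was above for 1861 (10.7%) and below for 2270 (13.0%). These splits rest on the processing. Against PC9, 3674 were above and 3623 below with RLE scaling, and 3296 and 4000 with upper-quartile scaling. Against H3122, 2614 were above and 1715 below with library totals alone, and 1850 and 2315 with limma-voom. Without combination replicate 1 the splits were 3543 and 3420 against PC9, and 1908 and 1829 against H3122.

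Mitotic genes separated the 3 lines. Their median log2 fold change was 0.87 in A549, 2.96 in PC9 and -0.92 in H3122, with all 23 lower in A549 than in PC9 and all 23 higher than in H3122. FOXM1 gave 1.11 in A549, 2.75 in PC9 and -0.59 in H3122 (differences -1.66, adjusted p = 5.66e-19, and 1.68, adjusted p = 3.05e-19). Replication genes had medians of 0.60, 2.45 and 0.01. For p53 targets the median was 0.66 in A549, 0.18 in PC9 and 0.39 in H3122, with 12 of 24 higher in A549 than in PC9 and 2 lower. Cholesterol genes had medians of -0.29, 0.41 and 0.08, with 15 of 20 lower in A549 than in PC9 and 9 lower than in H3122. NF-kB genes had medians of -0.82, 0.31 and -0.34, and 5 of 22 differed from PC9 and 3 from H3122, all lower in A549. These counts lie near the shares of all genes tested that were lower in A549, 21.6% against PC9 and 13.0% against H3122. POLR2A rose by 1.10 in A549, 1.62 in PC9 and 0.75 in H3122. Histones had medians of 1.04, 0.99 and 1.46.

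In all, 1648 genes differed from both PC9 and H3122 in 1 direction, 699 higher and 949 lower in A549. UNC93B1, which carries toll-like receptors to endosomes, had 215, 223 and 209 CPM in the A549 combination and 96.1, 100 and 103 CPM with trametinib. It rose by 1.11 in A549 against -0.58 in PC9 and -0.31 in H3122 (differences 1.67 and 1.40). The YAP target ANKRD1 had 4.18, 2.90 and 3.79 CPM against 8.55, 10.3 and 10.7 CPM. It fell by 1.43 in A549 and had 3.20 in PC9 and 0.49 in H3122 (differences -4.65 and -1.95). For both genes the A549 groups did not overlap. AIF1L fell by 2.59 against -0.47 and -0.25.

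Across genes, the log2 fold change hardly depended on length. In 5 equal groups by genomic span (96.4% of genes tested had one), the median ran from 0.01 in the shortest group to -0.05 in the longest, which holds genes over 93.7 kb. In the longest group 25.3% fell and 16.1% rose, against 18.8% and 20.6% in the shortest. The shortest group was also less abundant, with a median of 10.3 CPM under trametinib against 23.2 CPM in the longest. Among protein-coding genes alone 26.6% fell and 15.9% rose in the longest group, against 21.8% and 24.3% in the shortest.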

How the data were processed

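Per the labels' protocols, total RNA was isolated with a spin column kit and libraries were made with the NEBNext Ultra RNA kit. RSEM 1.2.12 with Bowtie2 2.2.1 on hg19 gave the expected counts that the authors deposited, per the submitters' processing notes; which gene models were counted is not stated there. RSEM divides reads between similar genes, so values of close copies are uncertain. Of 53893 gene IDs 47357 were matched to a symbol, and the rest hold 1.22% of A549 counts.

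Expected counts were rounded to whole numbers. The 15 A549 libraries were fitted together in edgeR 4.0.16 (R 4.3.3; quasi-likelihood, TMM scaling, filterByExpr, 14810 genes), with Benjamini-Hochberg adjustment over all genes tested and calls at an adjusted p under 0.05. The biological coefficient of variation was 4.8%. SE is the log2 fold change divided by the root of F. CPM uses TMM-scaled totals, and raw totals for CDKN2A, CDKN2B and MTAP. A second fit held 45 libraries of A549, PC9 and H3122 (17463 genes). The members and gene lists were chosen with earlier results of these data known, and lists are described by counts and medians without a test. Named genes are, by rule, the largest changes with at least 5 CPM in the higher arm overall (12 a direction), within each list (3), in the interaction (6), against both lines (5) and at 7 days (6), and 18 fixed genes. Others printed from the lists were chosen after their values were seen. Promoter windows are the 250 bases before RefSeq starts (GRCh38.p14), found for 10848 of 14810 genes tested.

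Alternatives were RLE, upper-quartile and total scaling, DESeq2 1.42.0, limma-voom 3.58.1, other filters, the 2 arms alone, a replicate block and leaving out each library. The arms share replicate numbers 2 and 3. Deviations of these same-numbered libraries correlated at -0.042 and -0.005, so libraries were not treated as paired. Trametinib at 48 h has no replicate 1, so these correlations do not cover that number.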

Additional observations from a re-analysis of the deposited data

Results flagged for a closer look

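The effect of THZ1 differed with and without trametinib for 4449 genes, and the effect of adding THZ1 differed between A549 and PC9 for 7293 genes and between A549 and H3122 for 4131 genes (edgeR quasi-likelihood test of each difference). The genes below were those with the largest such differences by the naming rule, with 3 libraries in every arm.

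For the difference with minus without trametinib, the largest positive values on the log2 scale were those of the fucosyltransferase FUT1 (4.40), the peptide hormone ADM2 (4.20), EGR2 (4.14), the enzyme CBS (3.68), S100A9 (3.59) and LRRC31 (3.40). In each of these, except LRRC31, the DMSO mean was the highest of the 4 arms at 48 h. FUT1, for example, had a mean of 5.36 CPM with DMSO and under 0.2 CPM in each library of the 2 trametinib arms, so its value rests on very few counts. CBS had a mean of 87.9 CPM with DMSO and 6.74 CPM with THZ1, and 4.82, 5.53 and 3.79 CPM in the combination against 4.28, 5.07 and 4.92 CPM with trametinib. The largest negative values were those of PPBP (-6.53), the monocyte chemokine CCL2 (-3.41), SERPINB7 (-3.17), CILP (-3.14), VTCN1 (-2.92) and CALB2 (-2.73). PPBP had no reads with DMSO, so the size of its value depends on the fit. CCL2 had 19.1, 14.4 and 18.1 CPM in the combination and 25.8, 26.4 and 24.5 CPM with trametinib, and means of 2.35 CPM with THZ1 and 0.321 CPM with DMSO.

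Between lines, the difference of A549 from PC9 and from H3122 was 1.67 and 1.40 for UNC93B1, 2.13 and 1.30 for C15orf48, 1.30 and 1.54 for the kinase GLYCTK, 2.23 and 1.22 for LIN7A, and 1.17 and 2.22 for complement factor I (CFI). CFI fell in A549 as well (-0.26), less than in PC9 (-1.45) and H3122 (-2.50). In the other direction it was -2.14 and -2.36 for AIF1L, -4.65 and -1.95 for ANKRD1, -2.94 and -2.29 for the myelin protein PMP22, -2.07 and -2.36 for the lipase inhibitor ANGPTL4, and -1.91 and -2.36 for the protocadherin PCDH1. ANGPTL4 had 33.2, 32.8 and 37.4 CPM in the A549 combination and 79.3, 69.9 and 78.2 CPM with trametinib.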

How the results depend on the processing

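The number of genes differing between the combination and trametinib was 6069, and it stayed within 1.5 times of that in every alternative run: 5018 with DESeq2, 6158 with limma-voom, 5953 to 6512 over scalings and filters, 5916 in a fit of the 2 arms alone, and 5240 to 5574 when 1 library was left out. No gene called in the main comparison was called in the opposite direction in any of these. With the replicate block the number was 5749, DUSP6 passed (-1.23, adjusted p = 0.0132) and ETV4 did not (adjusted p = 0.0516). Deviations of same-numbered libraries hardly correlated (-0.042 and -0.005, with 2 shared numbers). These correlations do not cover replicate 1, which trametinib at 48 h lacks. The block moved the interaction count from 4449 to 4387. Leaving out 1 library gave 3872 to 4269 genes for the interaction, 6846 to 6963 against PC9 and 3654 to 3849 against H3122. The share of positive interactions was 50.8%, and it was 59.3% with upper-quartile scaling and 60.3% with library totals alone. Of 222 genes checked under 15 alternatives, or 14 for 9 of them (8 not tested in the fit of the 2 arms alone, and FOSL1 without an adjusted p in DESeq2), 206 were called, 181 of them in all, 25 lost the call in at least 1 and 0 changed sign. Of the genes not called, 5 were called in at least 1 alternative. FOSL1 had an adjusted p of 4.56e-24 without a filter on low counts and of 0.0256 in a fit of the 2 arms alone, and the cause was not tested. With a 4-fold list at 7 days the medians were -0.51 for genes raised and 0.47 for genes lowered, and leaving out each 7-day library, an alternative added after seeing the data, left them at -0.30 and 0.23 and the shares at 44.9 to 45.4% and 40.0 to 41.2%. Medians of 5 of 31 lists changed sign. With 1 library left out, MAPK output (0.23) went from -0.23 without combination replicate 1 to 0.44 without replicate 2, the integrated stress response from -0.08 to 0.00, NRF2 targets from -0.06 to 0.01 and ZNF genes from -0.01 to 0.07. With library totals alone, the integrated stress response became 0.05, receptor tyrosine kinases 0.01 and NRF2 targets 0.04. Without combination replicate 2 NRF2 targets were at 0.01 and ZNF genes at -0.01, without combination replicate 3 ZNF genes at -0.01, and without trametinib replicate 4 ZNF genes at -0.00 and the integrated stress response at 0.00. Values under 1 CPM rest on few counts at this depth, so differences in ETV4, SPRY4 or FUT1 are limited by depth.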

Other observations

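Other gene groups moved little or both ways when THZ1 was added to trametinib. Of 23 interferon response genes 3 rose and 6 fell (median -0.07), and 7 rose and 6 fell when scaled by library totals, with STAT2 up by 0.37 and ISG20 down by 0.60. Of 15 antigen presentation genes 3 rose and 7 fell (median -0.27). The peptide transporter TAP1 had 100, 90.7 and 93.3 CPM against 62.5, 62.6 and 57.9 CPM and rose by 0.63, and the proteasome subunit PSMB9 rose by 0.60, while HLA-E fell by 0.56 and HLA-B by 0.59. HLA genes are variable and alike, so their single values are uncertain. Among 13 receptor tyrosine kinases 2 rose and 5 fell (median -0.06), and 2 rose and 3 fell when scaled by library totals. ROS1 fell by 1.25 and ERBB3 by 0.45, while AXL rose by 0.57. Of 12 FOXO targets 4 fell and 0 rose (median -0.13, or -0.24 without combination replicate 3), and 4 fell and 2 rose when scaled by library totals.

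Of 20 NRF2 targets 5 rose and 5 fell (median -0.02). Of 15 mesenchymal and matrix genes 6 fell and 1 rose (median -0.13, and -0.31 without combination replicate 3 to -0.02 without trametinib replicate 4), with vimentin (VIM) at 366, 377 and 364 CPM against 618, 607 and 614 CPM (-0.73 ± 0.04, adjusted p = 4.89e-12). Of 17 YAP and TEAD targets 8 fell and 3 rose (median -0.09). Without combination replicate 1, 10 of them fell and 2 rose (median -0.24), and scaled by library totals 6 fell and 4 rose. Of 20 lysosome and autophagy genes 8 fell and 7 rose (median 0.02), and 7 fell and 8 rose when scaled by library totals. Of 16 endoplasmic reticulum chaperones 5 fell and 3 rose (median 0.04), whereas with library totals 4 fell and 8 rose, so the balance turns with the scaling. Of 16 SR splicing factors 5 fell and 0 rose (median -0.08), and 3 fell and 1 rose with library totals. Of 321 ZNF genes 33 rose and 21 fell (median 0.01), with 50 and 14 under library totals and 43 and 13 without combination replicate 1. Of 6 melanocyte markers 2 were tested, and MITF was lower (-0.41). Its call was lost in DESeq2 (adjusted p = 0.0753) and without combination replicate 2 (0.0716) or trametinib replicate 2 (0.0739). Of 6 fibroblast and endothelial markers 1 was tested, LUM, and it did not pass.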
